A study of Homo sapiens with 6 samples.

Results

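The genes described here are the 3 transforming growth factor beta (TGF-beta) ligands, their 3 receptors, the effector SMAD3 and 3 genes of the negative feedback on SMAD signalling, SMAD7, SKIL and TGIF1. These 10 members were chosen by name from the 61541 Ensembl genes of one count table, and each was found once. RNA sequencing had been run on 6 libraries labelled A498, a line from a human clear cell renal carcinoma, grown in RPMI-1640 medium with fetal bovine serum. Libraries of the control group (n = 3) came from cells given a control shRNA (short hairpin RNA). Those of the knockdown group (n = 3) came from cells with an shRNA against RNF26, a ubiquitin ligase of the endoplasmic reticulum membrane. Both groups carried an shRNA, and the labels mention transfection and infection for both. The labels name a single line, do not tell how many shRNAs were used and do not say whether replicates were grown apart, so p-values here reflect how far these samples differ among themselves, and that spread can be technical. The study's title places the experiment in work on CDK4/6 inhibitors, RNF26 and the response of renal carcinoma to anti-angiogenic drugs.

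TGF-beta ligands are secreted in a latent form and bind the type II receptor TGFBR2 once released. TGFBR2 then phosphorylates the type I receptor TGFBR1, whose kinase activates SMAD2 and SMAD3, and these enter the nucleus with SMAD4 to regulate transcription. TGFBR3, or betaglycan, is a coreceptor that presents ligand, above all TGF-beta 2. SMAD7 recruits ubiquitin ligases to the active receptor, and SKIL (SnoN) and TGIF1 are corepressors that hold SMAD target genes down. SMAD7 and SKIL are themselves classic target genes of the pathway, which closes the feedback loop. In kidney epithelium TGF-beta is best known for growth arrest, matrix production and loss of epithelial character.

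In all, 3 members fell in the knockdown libraries and none rose. SMAD7 fell to 48.6% of its control level, TGFBR2 to 67.8% and TGFB1 to 78.9%. TGFB2, TGFB3, TGFBR1, TGFBR3, SMAD3, SKIL and TGIF1 did not pass the test. Genes were tested by quasi-likelihood in edgeR with Benjamini-Hochberg adjustment over 14766 genes and a threshold of 0.05, and all 10 members had the mean of at least 1 CPM (counts scaled to a common library size) needed to enter it. Of all tested genes, 41.4% were called in either direction, 22.6% lower and 18.9% higher. A count of 3 of 10 lower is close to that background, so the count is no result about the members as a group, and what follows describes them one by one. With libraries scaled by total counts alone, 30.1% of all genes were called higher and 15.3% lower, in place of 18.9% and 22.6%, and the same count of 3 members lower and 0 higher was found.

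RNF26 itself stood at 2030, 1942 and 1945 CPM in the control libraries and at 68.4, 69.2 and 68.3 CPM in the knockdown libraries, which left 3.48% of the control level. Total counts were 16682871 to 18021718 per library. The labelled cell type could not be read from its markers: of 16 markers of renal tubule and of this carcinoma, 12 averaged below 1 CPM, and SLC17A3 and UMOD were among those with no count in any library. All 14 squamous epithelium markers averaged at least 1 CPM over the 6 libraries, with KRT5 at a mean of 583 CPM in the control group and 623 CPM in the knockdown group. The summed squamous markers ranged from 5533 to 5783 CPM in the control libraries and from 2953 to 3035 CPM in the knockdown libraries, with 9 of 14 lower. The summed renal markers, mostly VIM in the control group, ranged from 64.8 to 66.4 CPM there and from 39.0 to 44.4 CPM in the knockdown group. Of this list 4 markers were tested. VIM fell from 49.9 to 19.3 CPM, whereas EGLN3 rose from 8.82 to 15.0 CPM (edgeR adjusted p = 2.54e-05). PAX8, with 34 to 53 counts in every library, and NNMT did not pass. Fibroblast and pericyte markers summed to 76.3 to 86.5 CPM against 99.9 to 106 CPM, most of it COL1A1, with 8 of 10 below 1 CPM and no count for COL3A1 and POSTN. Endothelial markers, 6 of 7 below 1 CPM, summed to 5.78 to 6.03 CPM against 5.05 to 6.98 CPM, and leukocyte markers, also 6 of 7 below 1 CPM, to 1.78 to 2.44 CPM against 1.69 to 1.96 CPM. In bulk libraries fewer cells of a type and less RNA per cell cannot be told apart, and the part of these marker shifts in the results below was not tested.

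The sequence before the start site is shown for the 3 members that fell and for SKIL, a feedback gene whose groups overlapped, so that the promoters of both kinds can be read side by side. Each line runs 5′ to 3′ over the 250 bases before a RefSeq start and the first 10 bases from it, on build GRCh38.p14. Where RefSeq lists several starts, as for SMAD7 (3) and TGFBR2 (2), one is shown. For both genes it is the window with the most motif matches, and gene counts do not tell which start these cells used. Capitals mark matches on either strand to the SMAD palindrome GTCTAGAC, the SMAD box CAGAC, the AP-1 site TGANTCA or the cyclic AMP response element TGACGTCA.
SMAD7, chr18:48950956-48951215, minus strand: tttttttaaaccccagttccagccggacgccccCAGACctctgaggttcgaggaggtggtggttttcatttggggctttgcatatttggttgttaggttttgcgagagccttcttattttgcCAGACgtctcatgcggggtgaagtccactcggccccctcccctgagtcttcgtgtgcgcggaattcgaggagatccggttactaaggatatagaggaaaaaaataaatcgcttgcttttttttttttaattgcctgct
TGFBR2, chr3:30606351-30606610, plus strand: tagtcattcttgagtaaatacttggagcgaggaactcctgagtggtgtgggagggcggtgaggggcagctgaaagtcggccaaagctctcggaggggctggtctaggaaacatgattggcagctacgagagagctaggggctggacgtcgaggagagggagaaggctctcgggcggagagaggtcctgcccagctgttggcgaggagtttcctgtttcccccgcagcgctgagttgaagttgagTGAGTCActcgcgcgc
TGFB1, chr19:41353913-41354172, minus strand: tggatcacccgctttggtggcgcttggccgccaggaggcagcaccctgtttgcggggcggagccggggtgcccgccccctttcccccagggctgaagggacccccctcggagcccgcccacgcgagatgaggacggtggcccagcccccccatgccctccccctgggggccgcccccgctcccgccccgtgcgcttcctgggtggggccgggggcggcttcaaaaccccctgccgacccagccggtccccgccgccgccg
SKIL, chr3:170357465-170357724, plus strand: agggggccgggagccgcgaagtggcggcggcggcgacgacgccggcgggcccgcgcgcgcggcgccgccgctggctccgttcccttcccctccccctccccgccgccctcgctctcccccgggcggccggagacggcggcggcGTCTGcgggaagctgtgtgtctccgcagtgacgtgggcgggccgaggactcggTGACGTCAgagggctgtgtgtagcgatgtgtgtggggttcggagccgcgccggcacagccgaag

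In the SMAD7 window the SMAD box occurred 2 times, at -217 to -213 and -128 to -124 from the start (the start is base 1). The box is short and common: 40.2% of the 35093 windows of this length held it. The SMAD7 windows not shown held 1 and 0 SMAD boxes. In the window shown, TGFBR2 had 1 AP-1 match, which spans the start from -6 to 1, and 6.92% of all windows held such a match. The other TGFBR2 window held none of the 4 motifs. TGFB1 had none of the 4 motifs in its only window. SKIL had 1 SMAD box at -107 to -103 and 1 cyclic AMP response element at -54 to -47, a motif in 1.80% of windows. Over the 31 windows of the 10 members the SMAD palindrome, present in 0.185% of all windows, was not found. Sequence outside these windows, such as that between the SMAD7 windows, was not searched. The remaining members held SMAD boxes in at least one window each, with the AP-1 site also in windows of SMAD3 and TGIF1, except TGFBR3, which had none of the 4 motifs in its single window. These matches are letters in a window and not measured binding.

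Among the ligands, TGFB1, the most widely expressed isoform, was lower. Its TMM-scaled level, in CPM adjusted by the trimmed mean of M values, was 58.5, 55.2 and 54.9 in the control libraries, against 43.8, 45.4 and 43.8 in the knockdown libraries. Every knockdown library lay below every control library. The means were 56.2 ± 1.97 and 44.3 ± 0.942 CPM (SD, n = 3 each), a 1.27-fold fall with a log2 fold change of -0.34 (SE 0.057, edgeR adjusted p = 7.93e-05). TGFB1 shares exonic sequence with HNRNPUL1 on the opposite strand, and the sources used here do not tell whether the counting used strand. HNRNPUL1 had 514 CPM in the control group and 547 CPM in the knockdown group, a log2 difference of 0.091 short of the threshold (edgeR adjusted p = 0.071).

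TGFB2, the isoform that depends most on the coreceptor, had the most counts of the ligands. Per length of exons it lay below TGFB1 in the control group (15.6 against 17.4 CPM per kilobase). It stood at 81.1, 81.3 and 78.1 CPM in the control libraries and at 71.9, 72.6 and 77.2 CPM in the knockdown libraries. The groups did not overlap, but knockdown replicate 3 came close to the lowest control library, and the log2 fold change of -0.12 (SE 0.051) did not pass (edgeR adjusted p = 0.072). Without that library the log2 fold change was -0.15 and passed (edgeR adjusted p = 0.042), while with total-count scaling it was -0.026 (edgeR adjusted p = 0.70) and with upper-quartile scaling -0.064 (edgeR adjusted p = 0.33). TGFB3, an isoform with roles in palate and lung development, was near the low end of what was tested. It had 69, 59 and 42 counts in control and 74, 62 and 82 in knockdown libraries, and the groups overlapped. Its log2 fold change of 0.28 (SE 0.21, edgeR adjusted p = 0.30) had an interval of 2 SE from -0.14 to 0.69, so at this depth a difference of 0 and a rise well above 0.28 both lay within its error. TGFB3 shares exonic sequence with TGFB3-AS1 on the opposite strand and TGFB2 with TGFB2-OT1 on the same strand.

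Of the receptors, TGFBR2, the ligand-binding type II kinase, fell. Its level was 98.8, 103 and 109 CPM in the control libraries and 76.1, 65.8 and 68.6 CPM in the knockdown libraries. The highest knockdown library, replicate 1, stayed well under the lowest control library. From 104 ± 5.01 to 70.2 ± 5.31 CPM (SD, n = 3 each) the change was 1.47-fold, with a log2 fold change of -0.56 (SE 0.058, edgeR adjusted p = 2.59e-07). TGFBR1, the type I kinase that phosphorylates SMAD2 and SMAD3, stood at 60.4, 66.9 and 67.5 CPM against 65.8, 63.0 and 69.4 CPM. The groups overlapped throughout, with a log2 fold change of 0.03 and an interval of 2 SE from -0.09 to 0.14 (edgeR adjusted p = 0.76), or 0.12 with total-count scaling (edgeR adjusted p = 0.115). The interval of TGFBR2 ran from -0.68 to -0.45. TGFBR3, the betaglycan coreceptor, had 40, 58 and 61 counts in control and 43, 40 and 43 in knockdown libraries. Control replicate 1 lay among the knockdown libraries, and the log2 fold change of -0.42 (SE 0.23) did not pass (edgeR adjusted p = 0.15). Leaving that control library out gave -0.62, which passed (edgeR adjusted p = 0.038), and leaving out control replicate 3 gave -0.30 (edgeR adjusted p = 0.385).

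**Figure D1:**
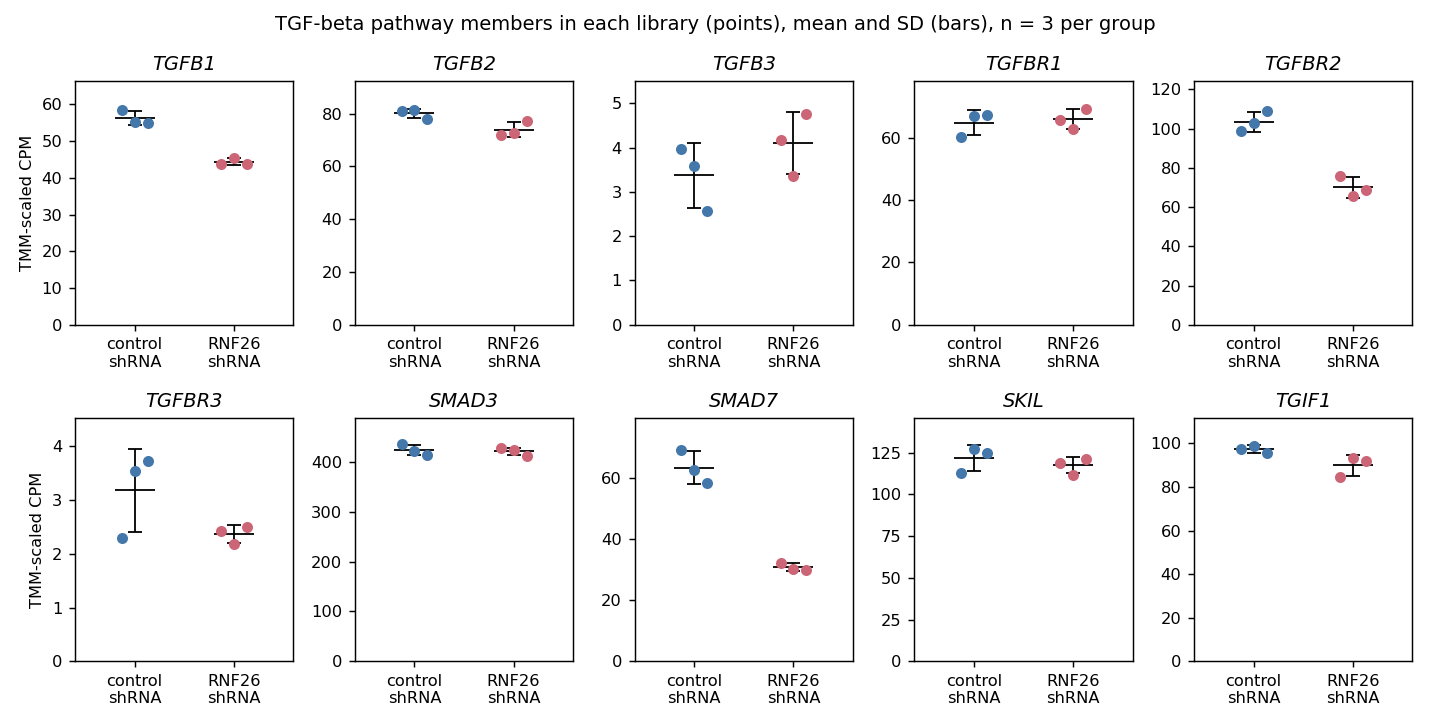
Level of each of the 10 members in each library (points, TMM-scaled CPM, linear axes from 0), with the mean and SD of each group (bars, n = 3). SMAD7, TGFBR2 and TGFB1 separate clearly, TGFB2 and TGIF1 separate narrowly, and the other 5 members overlap between groups.

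SMAD3, the receptor-activated transcription factor, was the most abundant member per length and did not pass the test. It stood at 435, 422 and 414 CPM in the control libraries and at 427, 423 and 412 CPM in the knockdown libraries. Both groups covered nearly the same range. The difference on the log2 scale was -0.0095 with SE 0.037 (edgeR adjusted p = 0.86), its interval of 2 SE ran from -0.083 to 0.064, and with total-count scaling it was 0.082 and did not pass (edgeR adjusted p = 0.076). SMAD3 shares exonic sequence with AC087482.1, an antisense transcript.

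SMAD7, the inhibitory SMAD that targets the receptor for degradation, had the largest change of the members. Its counts were 1204, 1027 and 958 in control and 573, 558 and 514 in knockdown libraries. Scaled, this gave 69.2, 62.5 and 58.4 CPM against 32.2, 30.3 and 29.9 CPM, with control libraries more spread than knockdown libraries and a wide gap between the groups. The mean fell from 63.4 ± 5.45 to 30.8 ± 1.25 CPM (SD, n = 3 each), or 2.06-fold, with a log2 fold change of -1.04 (SE 0.068, edgeR adjusted p = 4.11e-10). A call lower with at least a 2-fold change was made for 2.4% of all tested genes. SMAD7 met that mark narrowly. Its log2 fold change was -0.949 with total-count scaling, -0.986 with upper-quartile scaling and -0.974 without control replicate 1, each short of 2-fold. In the remaining settings it stayed at least 2-fold.

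Neither corepressor passed the test. SKIL, which binds SMAD complexes on their target genes, stood at 113, 127 and 125 CPM in the control libraries and at 119, 112 and 121 CPM in the knockdown libraries. The groups overlapped, and the difference on the log2 scale was -0.054 with SE 0.052 (edgeR adjusted p = 0.43), or 0.037 with total-count scaling. TGIF1, a homeodomain corepressor of SMAD2 and SMAD3, stood at 97.6, 99.0 and 95.6 CPM against 84.4, 93.5 and 91.8 CPM. All control libraries were above all knockdown libraries by a small margin, and the log2 fold change of -0.12 (SE 0.050) did not pass (edgeR adjusted p = 0.073). For TGIF1 total-count scaling gave -0.025 (edgeR adjusted p = 0.72), and leaving out knockdown replicate 1 gave -0.072 (edgeR adjusted p = 0.35). In all, 5 members had groups that did not overlap, each lower in the knockdown, where 50.1% of all tested genes had groups that did not overlap and 25.9% were lower in that way.

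**Figure D2:**
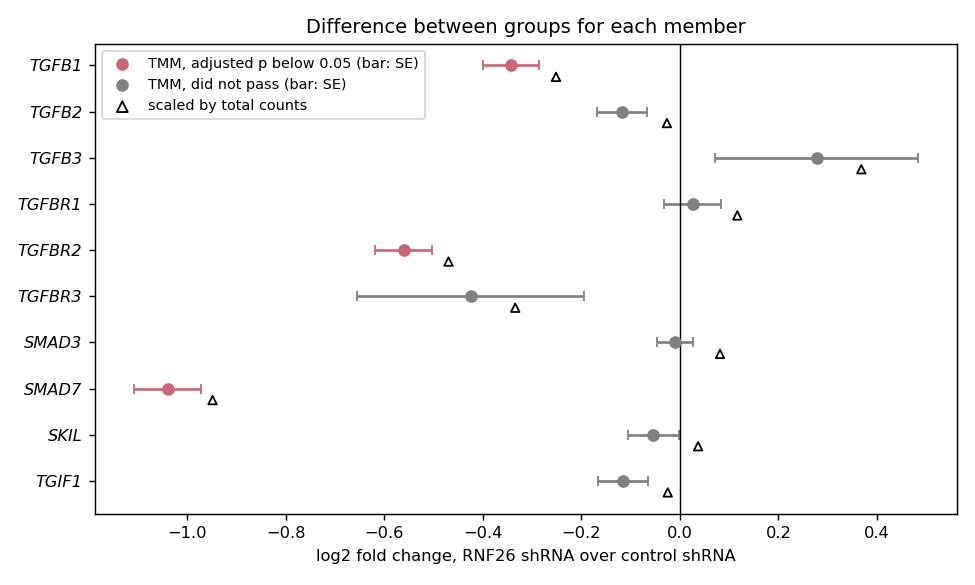
Log2 fold change of each member, knockdown over control, with its SE (horizontal bars) under TMM scaling, and under scaling by total counts (triangles). SMAD7 (-1.04), TGFBR2 (-0.56) and TGFB1 (-0.34) passed, and total-count scaling moved every member to the right, with SMAD3 and SKIL crossing 0.

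Levels of different genes were compared only per length, as CPM per kilobase (kb) of the union of annotated exons. In the control group SMAD3 led at 46.5 ± 1.17 CPM per kb, followed by TGFBR2 at 22.01 ± 1.07 and TGFB1 at 17.4 ± 0.608 (SD, n = 3). SKIL (15.6 ± 0.980) and TGFB2 (15.6 ± 0.349) overlapped, as did SMAD7 (12.6 ± 1.08) and TGIF1 (11.8 ± 0.206), all in CPM per kb. TGFBR1 followed at 9.49 ± 0.577, and TGFB3 (0.686 ± 0.148) and TGFBR3 (0.365 ± 0.0886) closed the order. In the knockdown group SMAD3 stayed first at 46.1 ± 0.828 CPM per kb. SKIL (15.1 ± 0.612), TGFBR2 (14.9 ± 1.13) and TGFB2 (14.3 ± 0.554) then overlapped, and the libraries of TGFB1 (13.7 ± 0.291) overlapped those of TGFB2 and TGFBR2. SMAD7, at 6.12 ± 0.249 CPM per kb, lay below TGIF1 (10.9 ± 0.587) and TGFBR1 (9.66 ± 0.471). The place of TGIF1 rests on the length chosen: over its longest transcript it had 32.1 ± 0.559 CPM per kb in the control group, second to SMAD3.

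The makeup of the ligand and receptor transcripts was then compared between groups as shares of the summed CPM per kb. TGFB1 made up 52.2%, 50.8% and 52.0% of the ligands in the control libraries, against 47.7%, 48.7% and 45.9% in the knockdown libraries. TGFB2 made up 45.5%, 47.0% and 46.4% against 49.3%, 48.9% and 50.8%. Thus TGFB1 was the larger share in every control library and TGFB2 in every knockdown library, although over the longest transcripts TGFB1 remained ahead of TGFB2 in both groups (49.8% against 45.5% in the knockdown). TGFB3 made up 2.03 ± 0.388% and 2.89 ± 0.465% (SD, n = 3 each). Among the receptors TGFBR2 made up 69.8%, 68.2% and 69.2% in the control libraries, against 62.1%, 59.7% and 58.3% in the knockdown libraries. TGFBR1 made up 29.8 ± 0.627% in the control group and 38.9 ± 1.86% in the knockdown group, with TGFBR3 at 1.14 ± 0.228% and 1.09 ± 0.0476%. All shares but that of TGFBR3 had groups that did not overlap. With 3 libraries against 3 a two-sided exact permutation test cannot go below p = 0.10, which 5 of the 6 shares reached (adjusted p = 0.12 over the 6 shares), and TGFBR3 had p = 0.80. Shares within a family are not independent of each other, and a share can rise without a rise in level. TGFBR1 had 9.49 CPM per kb in the control group and 9.66 in the knockdown group. TGFB2 had 15.6 and 14.3 CPM per kb, and neither gene passed the edgeR test.

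**Figure D3:**
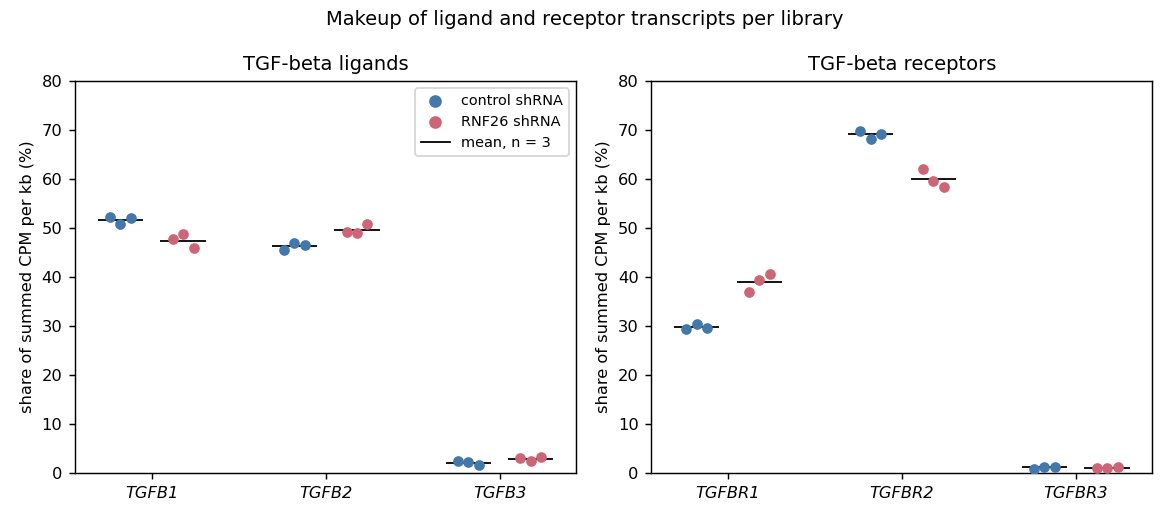
Share of each gene in the summed CPM per kb of the 3 ligands (left) and of the 3 receptors (right) in each library (points), with group means (lines, n = 3). TGFB1 has the larger mean in the control group and TGFB2 in the knockdown group, TGFBR2 averages 69.1% and 60.0%, and TGFB3 and TGFBR3 are minor in every library.

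The rest of the pathway was read from 5 gene lists, each described by its counts and its median log2 fold change beside those of all tested genes (18.9% higher, 22.6% lower, median 0.01). The lists overlap: ITGB6, LTBP2, MMP2 and PMEPA1 stand among the TGF-beta induced genes and in another list, and are counted in both. Among genes that store or release latent TGF-beta, 17 of 22 were tested, of which 8 were lower, 3 higher and 6 did not pass (median -0.0049). THBS1, a matricellular activator of latent TGF-beta, fell from 835 ± 10.0 to 332 ± 7.94 CPM, and PLAU, the protease that generates plasmin, from 712 ± 3.77 to 306 ± 4.35 CPM (log2 fold changes -1.33 and -1.22). The membrane protease MMP14 fell by 0.43 on the log2 scale. LTBP1, which tethers the latent complex to the matrix, rose from 40.0 ± 1.48 to 53.4 ± 3.77 CPM, a log2 difference of 0.42 (SE 0.064) with an edgeR adjusted p of 3.45e-05, and the integrin gene ITGAV and the protease gene MMP2 were the other genes that rose (0.11 and 0.15 on the log2 scale). THBS1, PLAU and LTBP1 share exonic sequence with genes on the opposite strand. With total-count scaling 6 of these genes were higher and 6 lower.

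Coreceptors and receptor regulators held the ubiquitin ligases through which SMAD7 acts. NEDD4L fell from 231 ± 3.88 to 118 ± 5.28 CPM (-0.97 on the log2 scale, SE 0.044), SMURF2 from 201 ± 2.84 to 117 ± 1.09 CPM (-0.78, SE 0.041) and SMURF1 from 120 ± 0.723 to 95.7 ± 2.12 CPM (-0.32, SE 0.044), with edgeR adjusted p of 1.22e-12, 1.27e-11 and 9.23e-06. WWP1, another ligase of this family, missed the threshold at -0.093 on the log2 scale (edgeR adjusted p = 0.21). CD109, a TGF-beta coreceptor that dampens signalling, rose from 137 ± 6.23 to 170 ± 9.47 CPM. Of 16 tested genes of this list 7 were lower, 2 higher (CD109 and the endothelial coreceptor gene ENG) and 7 did not pass, with a median of -0.11. Small changes in this list depended on scaling, with 4 lower and 5 higher by total counts, and leaving out control replicate 2 left 1 higher. NEDD4L, SMURF1, SMURF2 and CD109 share exonic sequence with genes on the opposite strand. Of these, TRRAP, opposite SMURF1, had a log2 fold change of 0.31, and CEP95, opposite SMURF2, had -0.11 and did not pass.

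Among SMAD partners, corepressors and phosphatases most genes did not pass. Of 20 tested, 4 were higher, 3 lower and 13 did not pass (median -0.03), or 7 higher and 1 lower with total-count scaling. SMAD6, the inhibitory SMAD of the bone morphogenetic protein branch, went the opposite way to SMAD7 and rose from 56.8 ± 0.773 to 94.99 ± 3.34 CPM, by 0.74 on the log2 scale (SE 0.051, edgeR adjusted p = 7.39e-10). The corepressors TGIF2 (0.22) and NCOR1 (0.18) rose on the log2 scale, and the SMAD phosphatase PPM1A fell by 0.23. SMAD2 and SMAD4, the direct partners of SMAD3, stood at 0.055 and -0.084 in log2 terms, short of the threshold, whereas with total-count scaling SMAD2 was 0.15 and passed (edgeR adjusted p = 0.028) and SMAD4 turned to 0.0067 (edgeR adjusted p = 0.93). In the non-SMAD branch, 11 of 11 genes were tested, of which 4 were lower, 1 higher and 6 did not pass (median -0.04). The p38 activator MAP2K3 fell from 75.3 ± 0.690 to 47.0 ± 0.652 CPM, the ubiquitin ligase TRAF6 fell by 0.29 and the adaptor TAB2 by 0.24 on the log2 scale, and the adaptor TAB1 rose by 0.30. TGIF2, SMAD4 and TAB2 share exonic sequence with TGIF2-RAB5IF, AC091551.1 and AL031056.1 in turn, each on the same strand. NCOR1 shares it with PIGL and AC002553.1 on the opposite strand.

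Genes known to be induced by TGF-beta were lower in larger part. All 30 were tested, of which 20 were lower, 4 higher and 6 did not pass, with a median of -0.49, or 18 lower and 6 higher with total-count scaling (median -0.40). Most of these genes also respond to other signals, and the list was drawn up with earlier results of these data known, so its direction is not independent evidence. The 4 largest called changes were in ANGPTL4, SNAI1, SNAI2 and IL11. SNAI2, a repressor of E-cadherin, fell from 312 ± 13.1 to 70.3 ± 3.33 CPM (-2.15 on the log2 scale, SE 0.048), and the cytokine IL11 from 188 ± 4.32 to 44.4 ± 1.13 CPM (-2.08, SE 0.048). ANGPTL4, a lipase inhibitor, fell from 12.0 ± 1.48 to 1.79 ± 0.461 CPM. SNAI1 had 57, 50 and 48 counts against 5, 13 and 16. Other standard readouts are given here, chosen after their values were seen. TGFBI, a matrix protein named for its induction, had 387 ± 4.60 and 386 ± 15.6 CPM and did not pass (edgeR adjusted p = 0.98), and the feedback gene PMEPA1 had a log2 fold change of -0.14 (edgeR adjusted p = 0.0053), a call lost with total-count scaling (-0.05). The 4 genes of the list that rose were COL1A1 (0.51), TPM1 (0.23), MMP2 (0.15) and FN1 (0.15), on the log2 scale. ANGPTL4, PMEPA1 and TPM1 share exonic sequence with genes on the opposite strand, and MMP2 with AC007336.3 on the same strand.

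**Figure D4:**
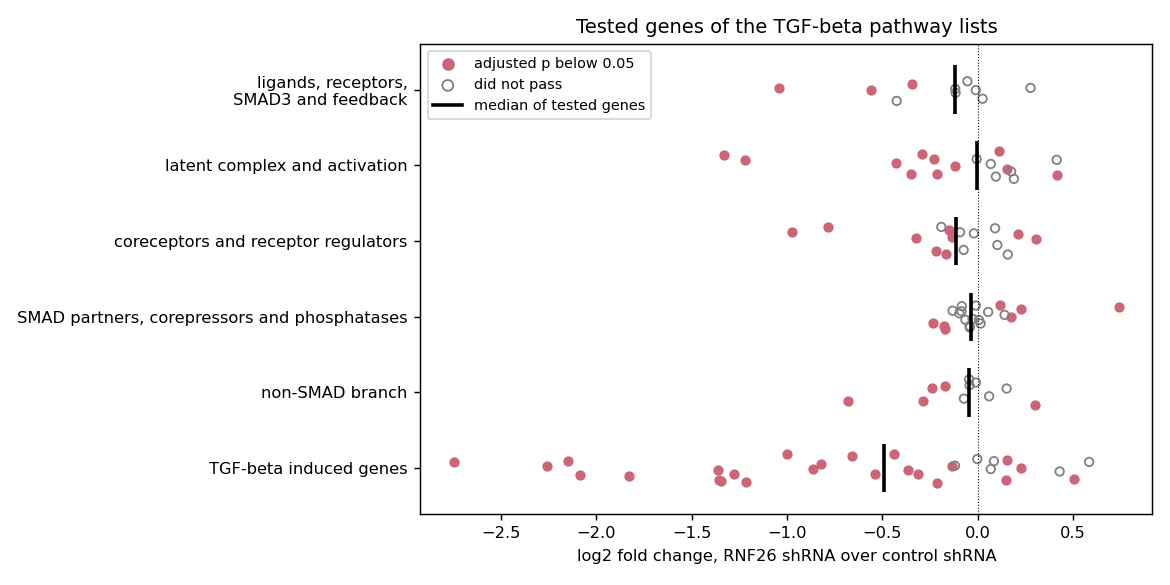
Log2 fold change of each tested gene, knockdown over control, in the 10 members and in 5 lists of the pathway (points, filled where the adjusted p is below 0.05), with the median of each (black line). The medians of the first 4 lists lie between -0.11 and -0.0049, and that of TGF-beta induced genes is -0.49.

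SMAD7, the called member with the largest change, was compared with 10016 other tested genes of at least 10 CPM for likeness of pattern. The 3 genes with the highest Pearson correlation over the 6 libraries, in log2(CPM + 1), were REXO4 (r = 0.999), the kinase gene MAP3K9 (r = 0.998) and the potassium channel gene KCNK1 (r = 0.998). All 3 were lower in the knockdown, with log2 fold changes of -0.21, -0.49 and -0.59. These libraries form 2 groups of 3, so such values mostly follow the difference between groups and are given as a description.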

How the data were processed

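RNA of 6 libraries, 3 per group, was sequenced from NEBNext directional libraries, per the labels' protocols. The authors deposited 1 table of whole-number gene counts for 61541 Ensembl IDs. It is named for FPKM but was treated as counts, because its values are whole and its totals differ (16682871 to 18021718). The submitters' processing notes name hg19. For aligner, counter, annotation and strand setting, nothing was given in the sources used here. No counts (0%) lay in 2 blank rows, which were dropped. Gene names were matched for 61369 IDs from the supplied name table and for 159 from GENCODE 29, the source of exon lengths and overlapping genes.

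Counts were tested with edgeR 4.0.16 in R 4.3.3 (quasi-likelihood, two-sided, TMM scaling, mean of at least 1 CPM, 14766 genes, 99.7% of counts, Benjamini-Hochberg). Each SE was obtained by dividing the size of the log2 change by the root of its F statistic. At this depth 1 count is worth 0.0555 to 0.0599 CPM. Replicates differed by more than sampling noise (chi-square per degree of freedom 2.31 to 4.98 within groups). Members, gene lists and markers were chosen with earlier results of these data known. The text names RNF26, the 10 members, up to 4 called genes of the largest change per list and the 3 genes most like the most changed member. Further genes (WWP1, ENG, ITGAV, SMAD2, SMAD4, TGFBI, PMEPA1, COL1A1, TPM1, MMP2, FN1) were named after their values were seen. Promoters are RefSeq's (GRCh38.p14) and were found for all 10 members. Alternatives were DESeq2 1.42.0, limma 3.58.1 (trend and voom), a robust edgeR fit, other scalings and filters, a replicate block and leaving out each library.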

Additional observations from a re-analysis of the deposited data

How the results depend on the processing

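SMAD7, TGFBR2 and TGFB1 kept their direction and their call in all 17 alternative settings. Leaving out 1 library at a time gave log2 fold changes of -1.10 to -0.97, -0.62 to -0.52 and -0.36 to -0.32 for these genes. Among members that did not pass, total-count scaling turned SMAD3 to 0.082 and SKIL to 0.037, and upper-quartile scaling turned SMAD3 to 0.044. Total-count scaling also moved TGFB2 to -0.026, TGIF1 to -0.025 and TGFBR1 to 0.12. Leaving out 1 library gave -0.029 to 0.0077 for SMAD3, -0.027 to 0.059 for TGFBR1, -0.15 to -0.10 for TGFB2, -0.62 to -0.30 for TGFBR3, 0.11 to 0.41 for TGFB3, -0.11 to -0.021 for SKIL and -0.15 to -0.072 for TGIF1. TGFB2 then passed only without knockdown replicate 3 and TGFBR3 only without control replicate 1. The cause was not tested.

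Over all genes, total-count scaling raised the genes called higher from 2785 to 4451. It gave 6 higher for latent complex and activation, 5 higher and 4 lower for coreceptors and receptor regulators, and 7 higher and 1 lower for SMAD partners, corepressors and phosphatases, where the median of all genes shifted by 0.09 on the log2 scale. Without 1 library the higher calls among coreceptors and receptor regulators ranged from 1 to 3. Over the longest transcripts the difference in the share of TGFB3 was 1.39 points in place of 0.853. With a minimum of 5 CPM, TGFB3 and TGFBR3 were not tested.

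Same-numbered libraries of the groups did not deviate together (correlations 0.011, -0.0271 and 0.0933), so the numbers were not taken as pairs. With the replicate number as a block the genes changed were 6414 in place of 6117, no member's call changed, and SMAD7 had a log2 fold change of -1.04. Depth limits TGFB3 and TGFBR3, with 40 to 82 counts per library.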
